A study of Homo sapiens with 24 samples.

Results

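Hypoxia response genes are the transcripts through which cells answer a shortage of oxygen, and 10 of them were followed here by name through all 8 conditions of an RNA-Seq series on triple-negative breast cancer (TNBC) cell lines. HIF1A, EPAS1, VEGFA, CA9, ADM, NDRG1, BNIP3, EGLN3, ANKRD37 and P4HA1 were matched by symbol in every table. All 10 were listed in each of the 4 deposited tables, which held between them 24 libraries in 8 groups of 3 replicates. No low-oxygen exposure is described for any group, and the oxygen level at the cells is not given. Sorted cells were also dissociated, stained and incubated before sorting, according to the paper.

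The first 2 tables came from sorted cells. Hs578T and HCC70 cells, both wild type, were separated by flow cytometry into breast cancer stem-like cells (BCSCs), which were CD24-CD44+ and ALDH+, and into non-BCSCs, which lacked both features. The other 2 tables came from unsorted cells labelled MDA-MB-231, a label that the libraries of 1 group went against, as described with the markers. In the depletion experiment, KIF20A, a mitotic kinesin, was targeted with a single guide (KIF20A sg1) and compared with a control guide (sgCtrl). In the overexpression experiment, cells labelled KIF20A OE were compared with cells carrying the empty vector (EV). Each experiment was also 1 label batch, so a difference between tables cannot be told apart from a difference between batches. Replicates were biological triplicates according to the labels, which do not say whether they came from separate cultures, so p-values measure the spread between these samples.

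Hypoxia-inducible factors (HIFs) are pairs of an oxygen-labile alpha subunit and a stable partner, ARNT. In oxygenated cells, prolyl hydroxylases (the EGLN enzymes) mark the alpha subunit for capture by VHL and destruction. When oxygen falls, the subunit persists, binds short DNA elements with the core ACGTG or GCGTG and raises the transcription of genes for glycolysis, blood vessel growth, pH control and matrix assembly. Because this control acts on protein stability, the mRNA levels of HIF1A and EPAS1 are not a readout of HIF activity.

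Among the 10 genes, HIF1A and EPAS1 encode the alpha subunits HIF-1α and HIF-2α. EGLN3 encodes the prolyl hydroxylase PHD3, itself a HIF target that feeds back on the factor. VEGFA and ADM encode secreted peptides, the angiogenic growth factor and the vasoactive hormone adrenomedullin. CA9 encodes a carbonic anhydrase at the cell surface that handles acid export, P4HA1 a subunit of collagen prolyl 4-hydroxylase, BNIP3 a mitophagy receptor, NDRG1 a stress-inducible protein linked to growth arrest, and ANKRD37 a small ankyrin repeat protein.

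RefSeq promoter windows (GRCh38.p14, 250 bases before the start site) were held for 8 of the 10 genes. They were searched on both strands for the cores ACGTG and GCGTG, which share their last letters and are the recognised core of a HIF element. One or the other was present in the window of 7 genes, and in 43.2% of 35116 promoter windows of that length genome-wide, so a match in itself sets no gene apart. The 5 stretches shown are those of target genes called lower in Hs578T BCSCs whose window held a core, so they show no link between core and fall. EGLN3, also called lower, had a window without a core, and NDRG1 had no window. They are printed 5′ to 3′ on the gene's strand with the cores of either strand in capitals.
CA9 (chr9:35673898-35673926, plus strand): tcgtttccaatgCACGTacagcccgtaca
ANKRD37 (chr4:185396650-185396714, plus strand): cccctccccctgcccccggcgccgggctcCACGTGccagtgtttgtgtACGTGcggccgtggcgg
BNIP3 (chr10:131982014-131982078, minus strand): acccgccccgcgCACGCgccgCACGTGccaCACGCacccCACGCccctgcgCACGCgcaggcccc
P4HA1 (chr10:73096936-73096964, minus strand): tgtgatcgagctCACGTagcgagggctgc
ADM (chr11:10304942-10305006, plus strand): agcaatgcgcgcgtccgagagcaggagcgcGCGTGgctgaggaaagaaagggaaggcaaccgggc

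The CA9 core began 18 bases before the start site, the nearest of the 7. BNIP3 held 6 cores and ANKRD37 held 3, where the palindrome CACGTG counts once on each strand. More than 1 core was found in 19.4% of all windows. Of the members' loci in GENCODE 44 (GRCh38), CA9 lies at chr9:35673928-35681159, ANKRD37 at chr4:185396021-185400628, BNIP3 at chr10:131967684-131981967, P4HA1 at chr10:73007217-73096974 and ADM at chr11:10305073-10307397. The ANKRD37 and P4HA1 stretches thus lie inside their own annotated loci, which begin upstream of the RefSeq start sites used. The CA9 and P4HA1 stretches are printed with shorter flanks (29 bases in all), because flanks of 30 bases met an annotated exon. The EGLN3 window held neither core, which says only that these letters are not there.

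Levels of the sorted lines are in TPM, a share of all transcripts scaled by transcript length, and those of the experiments labelled MDA-MB-231 in CPM, a share of all reads with no length term. Log2 differences are those of log2(value + 1), and a gene was called at an adjusted p under 0.05 by limma. Whole reads recovered from the deposited values gave 28189500 to 33715701 reads per Hs578T library and 24681218 to 33559417 per HCC70 library, both as lower bounds. Libraries of the overexpression experiment held 15971297 to 22182293 reads and those of the depletion experiment 41424338 to 51018667. Of the mesenchymal and epithelial markers, VIM was at 3661 to 4016 TPM in Hs578T and 4.56 to 6.65 TPM in HCC70, and the 5 epithelial markers summed to 320 to 422 TPM and 5348 to 5964 TPM. Of the 3 sorting markers, ALDH1A3 was higher in Hs578T BCSCs (706 against 289 TPM). In HCC70 its groups overlapped (90.6 to 105 TPM in BCSCs against 84.6 to 91.8 TPM). CD44 overlapped in both lines, with means of 579 against 558 TPM in Hs578T and 107 against 103 TPM in HCC70. CD24 overlapped in Hs578T (means of 83.1 against 86.2 TPM). Its RNA remained at 692 TPM in HCC70 BCSCs against 857 TPM in non-BCSCs. The libraries labelled KIF20A OE went against their label as MDA-MB-231 cells. Of 4 MDA-MB-231 surface and mesenchymal markers, CD44 was at 0.125 to 1.23 CPM and AXL at 0.750 to 0.811 CPM there, against 523 to 788 and 811 to 1107 CPM in EV, and the sum of the 4 was 362 to 803 against 4518 to 5262 CPM. All 6 markers of human embryonic kidney cells, the kind used to package lentivirus, were above 1 CPM in the mean of these libraries and summed to 1729 to 2280 CPM, with IRS4 at 1219 to 1750 CPM. In EV the same sum was 0 to 0.0476 CPM. The 5 dissociation stress genes summed to 926 to 3083 CPM against 499 to 611 CPM in EV, with JUN and ATF3 higher in all 3 libraries, EGR1 and HSPA1A lower in all 3 and FOS overlapping. The part of this in the EV comparison was not tested, and it holds for all 3 libraries, so no value without them can be given.

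In Hs578T, BCSCs held less RNA of the hypoxia response genes than non-BCSCs. All 10 genes were lower, their groups did not overlap in any of the 10, and 9 passed the test. The difference was largest for CA9, 2.67 times lower, and smallest for VEGFA, 1.08 times lower, the 1 member that was not called. Groups that did not overlap in the lower direction made up 17.0% of all 13324 genes tested, and genes called lower made up 4.26% (2.90% higher, 7.15% in either direction). The members' median log2 difference was -0.48 beside -0.01 over all genes. The members were chosen with earlier results of these data known, so the contrast with all genes is a description and not an independent test. In bulk samples, less RNA per cell and fewer cells carrying it cannot be told apart.

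CA9 stood at 15.6, 17.1 and 16.5 TPM in the 3 non-BCSC libraries and at 6.21, 6.00 and 6.18 TPM in the 3 BCSC libraries. The 3 BCSC libraries lay close together and far under the other group, with a log2 difference of -1.28 (SE 0.06, adjusted p = 4.29e-05). NDRG1 stood at 83.0, 85.0 and 90.5 TPM against 50.1, 51.6 and 56.3 TPM in BCSCs, a log2 difference of -0.70 (SE 0.06, adjusted p = 0.00103). EGLN3, the feedback hydroxylase, was the scarcest member, at 3.66, 3.84 and 3.13 TPM against 1.83, 1.98 and 2.17 TPM, and fell by 0.60 on the log2 scale (SE 0.10, adjusted p = 0.0108).

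BNIP3 and P4HA1 were among the abundant members and fell by similar amounts. BNIP3 stood at 201, 195 and 180 TPM in non-BCSCs and at 132, 142 and 131 TPM in BCSCs (log2 difference -0.51, SE 0.06, adjusted p = 0.00261). P4HA1 stood at 194, 188 and 168 TPM against 135, 128 and 134 TPM (log2 difference -0.46, SE 0.06, adjusted p = 0.00494). ANKRD37 was lower in level but moved alike, from 22.2, 23.7 and 21.4 TPM to 15.8, 15.4 and 15.8 TPM (log2 difference -0.49, SE 0.05, adjusted p = 0.00215). These genes, with CA9 and NDRG1, were called in each of the 6 fits that left out 1 library.

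The secreted peptides and the HIF subunits moved less. ADM stood at 84.1, 81.8 and 82.2 TPM in non-BCSCs and at 66.8, 73.0 and 60.2 TPM in BCSCs (log2 difference -0.31, SE 0.07, adjusted p = 0.0365). HIF1A stood at 373, 361 and 339 TPM against 303, 314 and 309 TPM (log2 difference -0.21, SE 0.05, adjusted p = 0.0402). EPAS1 stood at 21.4, 22.2 and 22.2 TPM against 18.6, 19.5 and 18.4 TPM (log2 difference -0.21, SE 0.05, adjusted p = 0.0382). VEGFA, at 226, 235 and 238 TPM against 209, 218 and 219 TPM, did not pass (log2 difference -0.11, SE 0.04, adjusted p = 0.165). The calls of ADM and EPAS1 held in 1 of the 6 fits that left out a library, that without BCSC replicate 2, and that of HIF1A in 2. Without non-BCSC replicate 2, the count of members called was 5, since EGLN3 was then lost as well (adjusted p = 0.0579).

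**Figure D1:**
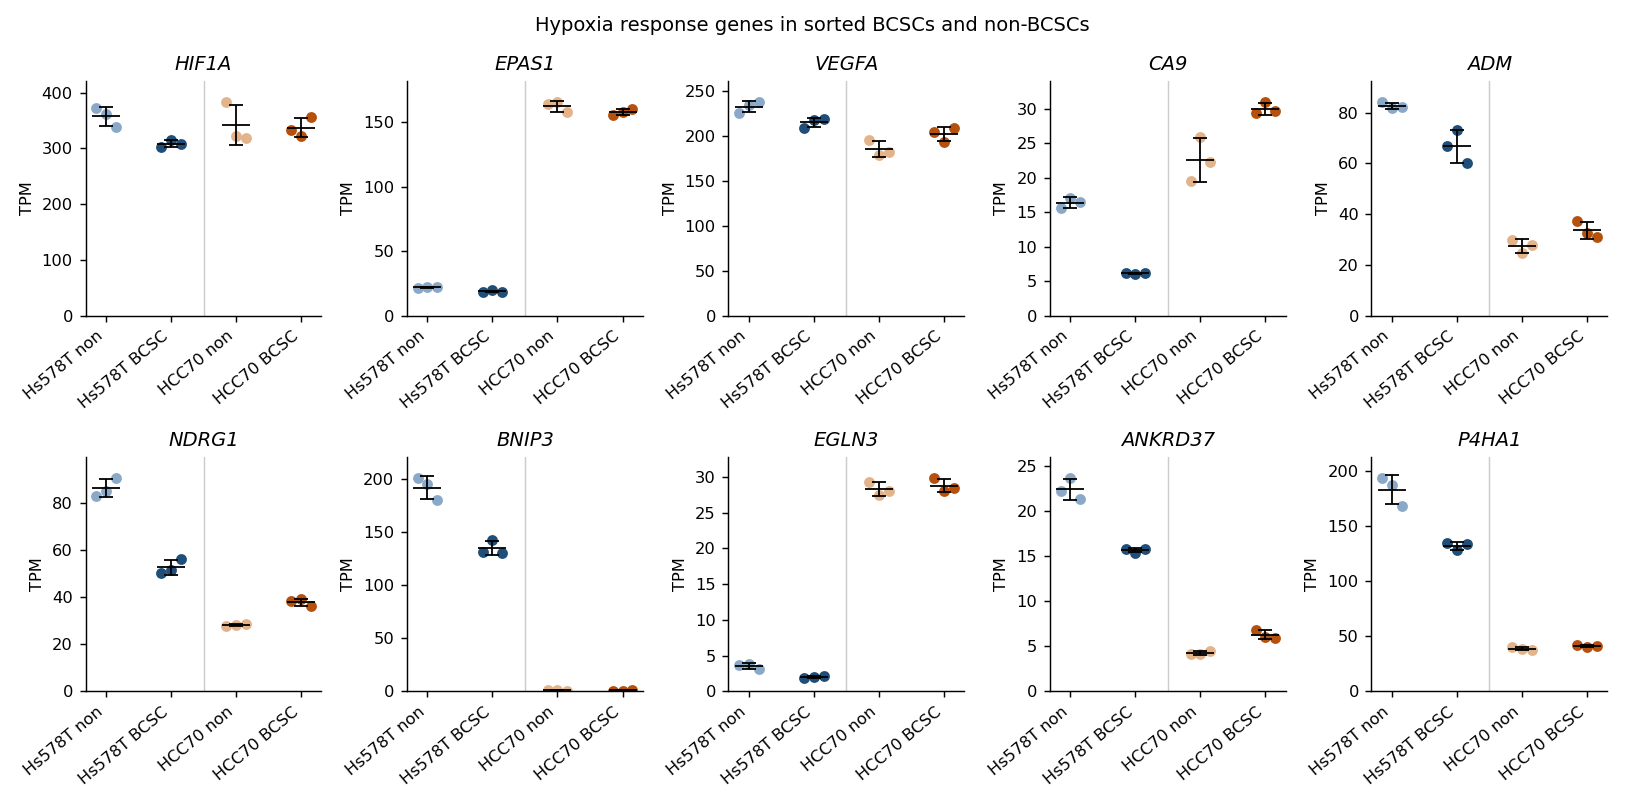
Level of each hypoxia response gene in TPM (linear axes from 0) in the sorted libraries of Hs578T (blue) and HCC70 (orange), with non-BCSCs in the paler shade. Points are libraries and bars give mean ± SD (n = 3). In Hs578T the BCSC points lie under the non-BCSC points for all 10 genes, and in HCC70 they lie above them for CA9, ADM, NDRG1 and ANKRD37.

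In HCC70, the direction was the other way for part of the set. NDRG1 and ANKRD37 were higher in BCSCs, CA9 and ADM were separated in the same direction without passing the test, and none of the others tested was called. Of the 9 members tested, 2 were called, both higher, where 2.28% of all 13218 genes tested were called higher (0.552% lower, 2.83% in either direction). Groups did not overlap for 4 members, all higher, and for 20.9% of all genes in that direction. The members' median log2 difference was 0.12 beside 0.02 over all genes.

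NDRG1 stood at 27.9, 28.2 and 28.5 TPM in non-BCSCs and at 38.4, 39.0 and 36.1 TPM in BCSCs (log2 difference 0.41, SE 0.05, adjusted p = 0.0130). ANKRD37 stood at 4.15, 4.20 and 4.50 TPM against 6.87, 6.06 and 5.94 TPM (log2 difference 0.46, SE 0.09, adjusted p = 0.0393), on 39 to 85 reads per library. It was not called by edgeR (adjusted p = 0.0634), by DESeq2 (adjusted p = 0.170) or by limma with no minimum mean (adjusted p = 0.0732). The ANKRD37 call was lost in each of the 6 fits that left out a library (adjusted p = 0.0651 to 0.164), and the NDRG1 call was lost without BCSC replicate 1 or without BCSC replicate 2, leaving 0 members called in both of these fits. One member remained without non-BCSC replicate 1, without non-BCSC replicate 3 or without BCSC replicate 3.

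CA9 stood at 19.5, 25.9 and 22.3 TPM in non-BCSCs and at 29.3, 30.9 and 29.6 TPM in BCSCs, a log2 difference of 0.40 that missed the threshold (SE 0.10, adjusted p = 0.0667) and passed it by DESeq2 (adjusted p = 0.0267), at a minimum mean of 5 TPM (adjusted p = 0.0499) and without non-BCSC replicate 2 (adjusted p = 0.0465). ADM stood at 30.02, 24.7 and 27.7 TPM against 37.4, 32.7 and 30.9 TPM (log2 difference 0.28, SE 0.09, adjusted p = 0.127). VEGFA, P4HA1 and EGLN3 differed by 0.12, 0.08 and 0.03 on the log2 scale, HIF1A by -0.01 and EPAS1 by -0.04, all with adjusted p from 0.250 to 0.934. BNIP3 was nearly silent in this line, with non-BCSCs at 0.923 ± 0.311 TPM and BCSCs at 0.966 ± 0.398 TPM (SD over 3 libraries of 12 to 24 reads), which is under the minimum mean of 1 TPM, so it was not tested. The 5 dissociation stress genes FOS, JUN, EGR1, ATF3 and HSPA1A summed to 958 to 1104 TPM in HCC70 non-BCSCs and to 1150 to 1202 TPM in BCSCs, with JUN overlapping and the other 4 higher in all BCSC libraries. In Hs578T the sums overlapped, at 258 to 259 TPM and 230 to 302 TPM, through JUN in BCSC replicate 2 at 174 TPM. There FOS (17.8 to 18.9 against 22.4 to 22.8 TPM), EGR1 (81.5 to 85.6 against 87.3 to 89.3 TPM) and HSPA1A (19.4 to 20.5 against 24.4 to 26.7 TPM) were lower in all BCSC libraries, as the members were. The part of these genes in the differences of either line was not tested.

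CA9 and ANKRD37 share large parts of their exons with a gene on the other strand, and whether reads were counted by strand is not given in the sources used here. CA9 overlaps ARHGEF39 over 571 of its 1598 exon bases. ARHGEF39 differed by 0.24 on the log2 scale in Hs578T (adjusted p = 0.0599), opposite in sign to CA9, and by 0.31 in HCC70 (adjusted p = 0.0460), in the same direction as CA9. ANKRD37 overlaps UFSP2 over 909 of its 2253 exon bases, and UFSP2 averaged 34.6 TPM in the non-BCSCs of Hs578T, close to the 34.4 TPM of the BCSCs, and differed by 0.01 on the log2 scale in HCC70.

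The BCSC difference itself differed between the lines. An interaction test over the 12 sorted libraries called 6 of the 9 members tested, all with a larger value in HCC70 than in Hs578T, where 5.62% of all 11668 genes tested were called in that direction (1.49% in the other, 7.11% in either). The gap was 1.69 for CA9 (SE 0.12, adjusted p = 2.10e-05), 1.11 for NDRG1 (SE 0.08, adjusted p = 2.10e-05) and 0.95 for ANKRD37 (SE 0.09, adjusted p = 0.000286), in log2 units. EGLN3, ADM and P4HA1 followed with 0.63 (SE 0.10), 0.60 (SE 0.12) and 0.54 (SE 0.08). VEGFA, HIF1A and EPAS1 had gaps of 0.23, 0.20 and 0.17 with adjusted p of 0.0626, 0.224 and 0.0993. All 6 calls held in each of the 12 fits without 1 library, and VEGFA joined them without HCC70 non-BCSC replicate 1 (adjusted p = 0.0428). Since each line was a batch and a table of its own, line and batch cannot be told apart.

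KIF20A, the gene the study was built around, was higher in BCSCs of both lines, at 297 ± 25.6 against 217 ± 2.54 TPM in Hs578T and 125 ± 3.48 against 71.4 ± 2.69 TPM in HCC70 (SD, n = 3; log2 differences 0.45 and 0.80, adjusted p = 0.00718 and 0.00157). The paper picked it from genes that differed between these fractions in both lines, so these values are no independent test.

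The lines also differed in which members they used, as read from TPM, which is scaled by transcript length, in separately normalized tables and so without a test. HIF1A was the highest and VEGFA the second highest member in each of the 4 sorted groups. In Hs578T non-BCSCs BNIP3 (192 ± 10.9 TPM) and P4HA1 (183 ± 13.4 TPM) came next and overlapped, then NDRG1 (86.2 ± 3.87) and ADM (82.7 ± 1.22), which also overlapped, then ANKRD37 and EPAS1, again overlapping, then CA9 and EGLN3. In HCC70 non-BCSCs EPAS1 came after VEGFA, at 162 ± 4.22 TPM, 7.40 times its mean in Hs578T non-BCSCs, and P4HA1 followed, at 39.0 ± 1.47 TPM. EGLN3, NDRG1, ADM and CA9 then overlapped neighbour by neighbour between 19.5 and 30.02 TPM. EGLN3 was 7.97 times higher in HCC70 non-BCSCs, whereas BNIP3 was 208 times higher in Hs578T non-BCSCs.

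The wider HIF pathway was described with 3 lists of 76 other genes. These lists too were chosen with earlier results of these data known, so the shares over all genes serve as description only. In Hs578T 69 were tested, of which 23 fell and 3 rose in BCSCs, where 4.26% of all genes were called lower and 2.90% higher, with a median log2 difference of -0.14 beside -0.01 over all genes. In HCC70 66 were tested, of which 4 rose and 0 fell, where 2.28% of all genes were called higher and 0.552% lower, with a median of 0.08 beside 0.02. The Hs578T count was 15 without non-BCSC replicate 2 and 15 without BCSC replicate 1. The HCC70 count was 1 without non-BCSC replicate 1 or 3, and 0 without any of the other 4 libraries.

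Of the glycolytic targets in Hs578T, 8 of 21 tested fell, 0 rose and 13 were not called, beside 4.26% of all genes called lower, with a median log2 difference of -0.24. The pyruvate dehydrogenase kinase PDK1 fell from 36.1 ± 1.79 to 22.3 ± 0.978 TPM (log2 difference -0.67, adjusted p = 0.00101). PFKFB4, an activator of phosphofructokinase, fell by 0.61, the glucose transporter SLC2A1 by 0.49 and lactate dehydrogenase LDHA by 0.42 on the log2 scale. In HCC70 1 of 20 was called, beside 2.28% of all genes called higher, namely SLC2A1, which rose from 67.7 ± 2.65 to 83.8 ± 1.97 TPM (log2 difference 0.30, adjusted p = 0.0314).

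Of the other HIF targets, 15 of 35 tested fell and 3 rose in Hs578T BCSCs, beside 4.26% of all genes called lower and 2.90% higher. The largest differences were those of the mitochondrial adenylate kinase AK4 (-0.76), PPFIA4 (-0.74), ZNF395 (-0.65) and TMEM45A (-0.55). The 3 that rose were IGFBP3, STC2 and BHLHE41, named here after their values were seen. In HCC70 3 of 34 rose, the mTOR inhibitor DDIT4 (log2 difference 0.42), the secreted hormone STC2 (0.34) and the ephrin ligand EFNA1 (0.29), and 0 fell, beside 2.28% of all genes called higher. STC2 was thus called higher in both lines.

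Of the oxygen sensing genes and HIF partners, which include EGLN1, VHL and ARNT, 0 of 13 tested were called in Hs578T and 0 of 12 in HCC70 by limma, with 3 in each at an unadjusted p under 0.05, and the list medians were 0.01 and 0.05. Since 7.15% and 2.83% of all genes were called in these lines, a list of this size with 0 calls is near the background. Among ligands, receptors and paralogs of the members, the placental growth factor PGF fell in Hs578T by 0.34 and the lymphatic growth factor VEGFC rose by 0.24, and the paralogs P4HA2 and BNIP3L fell by 0.36 and 0.25. In HCC70 CA2, a cytosolic carbonic anhydrase, fell by 0.63 and NDRG2 rose by 0.36. In the interaction test, 20 of 65 pathway genes tested were called with the larger value in HCC70 and 2 with the larger value in Hs578T, beside 5.62% and 1.49% of all genes.

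**Figure D2:**
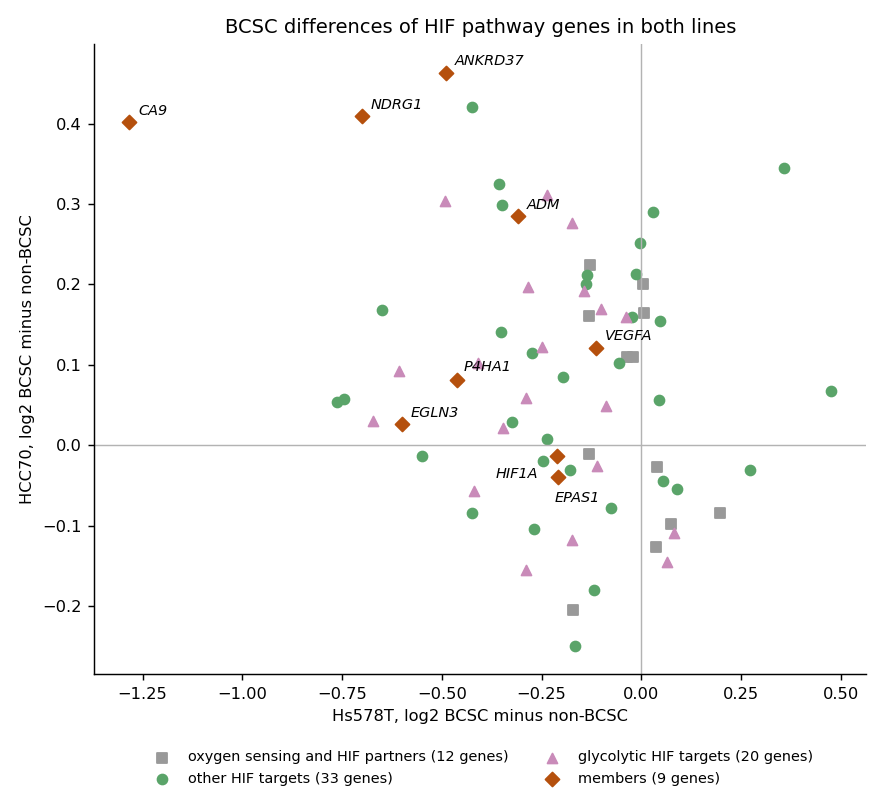
Log2 difference between BCSCs and non-BCSCs in Hs578T (horizontal axis) and HCC70 (vertical axis) for 9 hypoxia response genes and 65 other HIF pathway genes tested in both lines, coloured by list. Of the pathway genes, 35 lie in the upper left quadrant, lower in Hs578T and higher in HCC70, as do 7 of the 9 members, with CA9 farthest to the left. The share of all genes in that quadrant was not computed. The medians over all genes lean the same way, at -0.01 in Hs578T and 0.02 in HCC70.

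In MDA-MB-231 cells, KIF20A sg1 left the hypoxia response genes without a called difference from sgCtrl. The targeted gene itself stood at 153, 173 and 156 CPM with sgCtrl and at 122, 145 and 91.1 CPM with KIF20A sg1, a mean ratio of 0.743 (unadjusted p = 0.0174, adjusted p = 0.690 by limma). By immunoblot, the paper reports depletion of the KIF20A protein with its guides in this line, which these RNA values do not measure. Of the 10 members 0 were called by limma, edgeR or DESeq2, and 0 of all 12852 genes tested (0%) by limma and 0 by edgeR, against 16 genes by DESeq2. Without sgCtrl replicate 3 limma called 144 genes and without KIF20A sg1 replicate 2 it called 5, with 0 members in both. At an unadjusted p under 0.05, limma gave 2 members and 7.00% of all genes.

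These were BNIP3, higher with the guide, and ADM, lower with it. BNIP3 stood at 235, 270 and 300 CPM with sgCtrl and at 365, 452 and 273 CPM with KIF20A sg1, where 1 library lay inside the control range (log2 difference 0.41, SE 0.18, unadjusted p = 0.0409, adjusted p = 0.694). ADM stood at 16.6, 16.8 and 20.4 CPM against 9.78, 16.0 and 13.2 CPM (log2 difference -0.45, SE 0.19, unadjusted p = 0.0329, adjusted p = 0.690), and was the 1 member whose groups did not overlap, where 7.30% of all genes did not overlap in that direction. The exact permutation test of 3 against 3 libraries cannot go below 0.10, the value it gave for ADM.

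The other 8 members overlapped between sgCtrl and KIF20A sg1. P4HA1 and EGLN3 were ordered like BNIP3, with their highest library in KIF20A sg1 replicate 2 and their lowest in sgCtrl replicate 1, at 206 and 106 CPM for P4HA1 and at 37.7 and 16.3 CPM for EGLN3. VEGFA ranged more within groups than between them, from 201 to 379 CPM in sgCtrl and from 183 to 383 CPM in KIF20A sg1. CA9 rested on 38 to 113 reads per library, at 0.923 to 1.68 CPM and 0.906 to 2.36 CPM. HIF1A, EPAS1, NDRG1 and ANKRD37 differed by 0.21, -0.34, 0.23 and 0.06 on the log2 scale, with adjusted p from 0.699 to 0.951.

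In the pathway lists 0 of 69 genes were called by limma and 8 had an unadjusted p under 0.05, with a median log2 difference of 0.07 beside 0.00 over all genes. DESeq2 called 1, the secreted lipase inhibitor ANGPTL4, which stood at 1.196 ± 0.211 CPM with sgCtrl and 4.71 ± 3.18 CPM with KIF20A sg1 (limma log2 difference 1.25, SE 0.31, unadjusted p = 0.00182, adjusted p = 0.690). At an unadjusted p under 0.05 and with the same adjusted p, the log2 differences by limma were 0.52 for TGFA and 0.51 for PDK3. Those of PDK1, KDM3A, HK2, ARNT2 and BHLHE40 were 0.38, 0.36, 0.32, -0.34 and -0.53. RAMP1, which is not in the pathway lists but among the ligands, receptors and paralogs, differed by -0.51 with the same adjusted p.

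**Figure D3:**
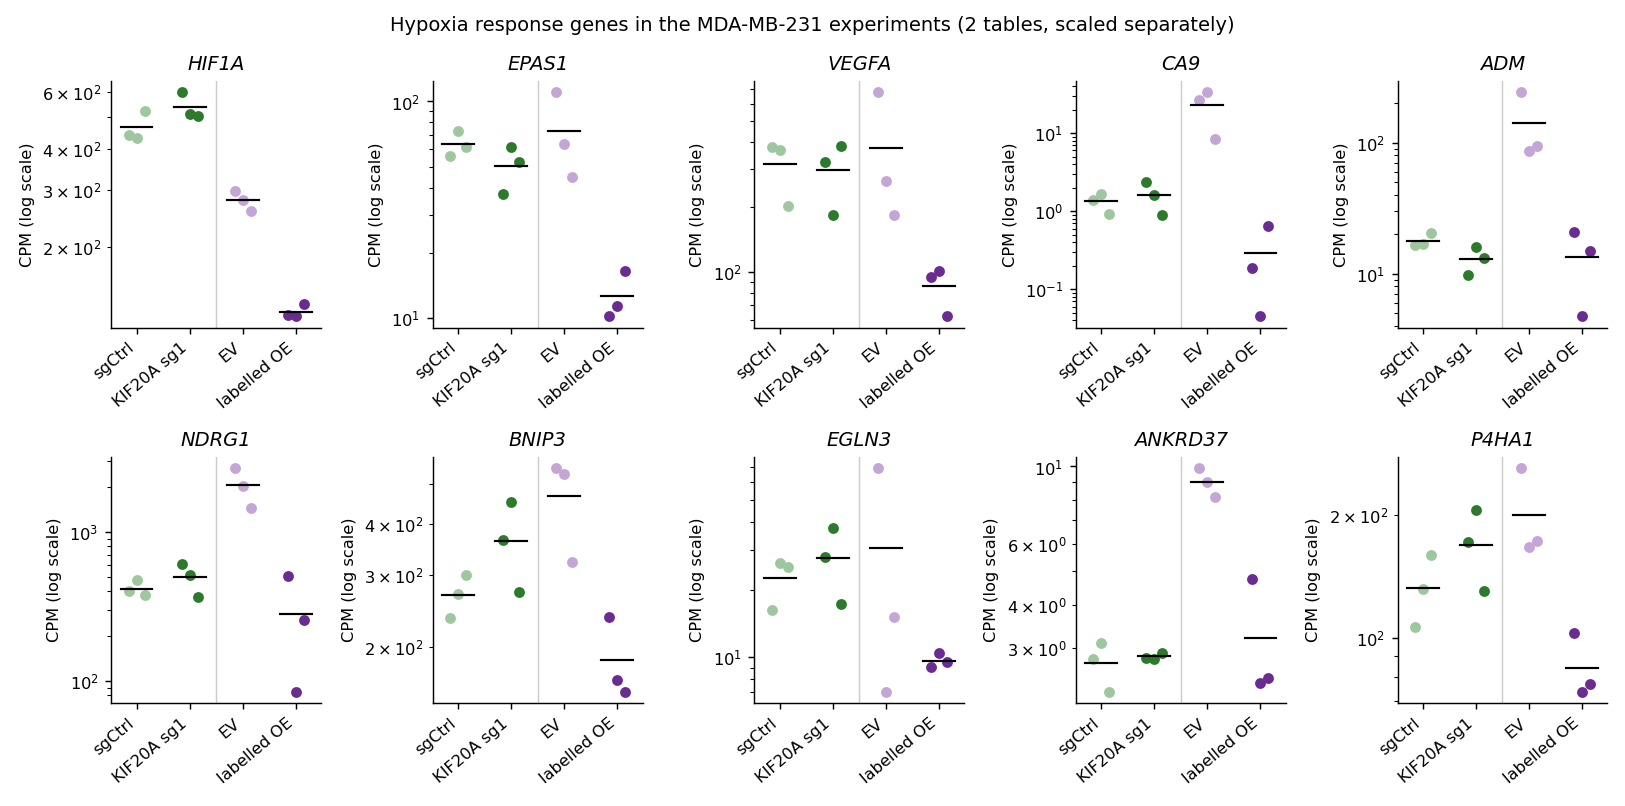
Level of each hypoxia response gene in CPM on a log axis in the experiments labelled MDA-MB-231, with sgCtrl and KIF20A sg1 in green and EV and the libraries labelled KIF20A OE in purple. Points are libraries and lines are means (n = 3); the green and purple groups come from tables scaled separately. The green groups overlap for 9 of 10 genes, and the labelled OE points lie under the EV points for all genes other than EGLN3.

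The 2 sets of MDA-MB-231 controls did not sit at the same levels. CA9 stood at 8.53 to 33.3 CPM in EV and at 0.923 to 1.68 CPM in sgCtrl, ADM at 86.0 to 242 against 16.6 to 20.4 CPM, and NDRG1 at 1453 to 2687 against 376 to 472 CPM, mean ratios of 17.2, 7.85 and 4.94. HIF1A was the reverse, at 257 to 298 CPM in EV and 431 to 525 CPM in sgCtrl, and EPAS1, VEGFA and EGLN3 overlapped. The 2 tables were normalized separately and belong to separate batches, so these differences were not tested and vector, batch and culture cannot be told apart.

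EV libraries also differed among themselves. EGLN3 stood at 69.5 CPM in EV replicate 1 and at 7.01 and 15.1 CPM in the others, a span of 9.92 times. VEGFA stood at 679, 265 and 183 CPM and ADM at 242, 86.0 and 93.5 CPM, with replicate 1 highest in each. CA9 was lowest in replicate 3, at 8.53 CPM, against 26.9 and 33.3 CPM.

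The libraries labelled KIF20A OE held less of all 10 transcripts than EV, and 9 were called, where 23.4% of all 15265 genes tested were called lower (46.2% higher, 69.7% in either direction). KIF20A stood at 101, 143 and 124 CPM in EV and at 1348, 269 and 896 CPM in these libraries (log2 difference 2.49, SE 0.51, adjusted p = 0.00249). The median log2 difference over all genes was 0.37 in this comparison and 0.03 after median of ratios scaling. Against that, the members' median was -1.61, and -1.98 after the same scaling, with all 10 lower under each of the 3 scalings. Groups did not overlap for 9 members and for 25.2% of all genes in the lower direction.

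CA9 was the lowest member there, at 0.188, 0.0451 and 0.642 CPM from 3, 1 and 12 reads, against 26.9, 33.3 and 8.53 CPM in EV (log2 difference -4.04, SE 0.46, adjusted p = 9.31e-05). Its mean was 78.6 times lower, a ratio that rests on these few reads. The log2 difference, taken after adding 1, understates it. ADM stood at 20.8, 4.73 and 14.9 CPM, 10.4 times lower in the mean than EV (log2 difference -3.32, SE 0.54, adjusted p = 0.000730). NDRG1 stood at 506, 84.2 and 258 CPM, 7.28 times lower (log2 difference -3.16, SE 0.57, adjusted p = 0.00124). Replicate 2 was the lowest of the 3 for each of these genes and for HIF1A, P4HA1 and ANKRD37, and it also held the least KIF20A. It was the highest for VEGFA (101 CPM) and EGLN3 (10.4 CPM). EPAS1 and EGLN3 were lowest in replicate 1, and BNIP3 and VEGFA in replicate 3. A relation to the KIF20A level was not tested.

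EPAS1 was 5.77 times lower and VEGFA 4.37 times lower (log2 differences -2.37 and -1.92, SE 0.32 and 0.43). BNIP3, ANKRD37, P4HA1 and HIF1A were 2.51, 2.82, 2.37 and 2.19 times lower, with log2 differences from -1.31 to -1.12. EGLN3 stood at 9.02, 10.4 and 9.53 CPM, inside the EV range, and was not called (log2 difference -0.97, SE 0.67, adjusted p = 0.223), but was called without EV replicate 2 (log2 difference -1.66, adjusted p = 0.0314) and by edgeR and DESeq2 (adjusted p = 0.0388 and 0.0498). UFSP2, which overlaps ANKRD37, was lower as well (log2 difference -0.60, adjusted p = 0.00827), and ARHGEF39, which overlaps CA9, was higher (1.99, adjusted p = 6.52e-05).

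In the same libraries, 36 of 72 pathway genes tested were called lower and 21 higher, beside 23.4% of all genes called lower and 46.2% higher, with a median log2 difference of -0.51 beside 0.37 over all genes. Glycolytic targets fell in 15 and rose in 3 of 22, among them the lactate exporter SLC16A3 from 619 ± 67.8 to 3.88 ± 0.122 CPM, SLC2A3 from 154 ± 22.4 to 14.4 ± 6.24 CPM and SLC2A1 from 892 ± 360 to 128 ± 48.4 CPM, while PDK3 rose from 17.9 ± 7.38 to 80.8 ± 2.01 CPM. Of the other targets, 19 fell and 9 rose of 37, with IGFBP3 at 814 CPM in EV and 1.48 CPM in these libraries, ANGPTL4 at 148 and 0.672 CPM, and STC2 at 0.269 and 85.0 CPM. Of the oxygen sensing genes 9 of 13 were called higher, the more frequent direction over all genes, led by ARNT2 (log2 difference 3.74), VHL, from 88.5 to 197 CPM, and EGLN1 (0.90), and 2 lower, including CITED2 (-1.01). Of the ligands, receptors and paralogs, 7 of 21 were called higher and 9 lower, with VEGFC at 137 and 6.78 CPM, the receptor NRP1 at 650 and 40.05 CPM, CA2 at 0.466 and 144 CPM and NDRG2 at 0.0392 and 41.1 CPM.

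**Figure D4:**
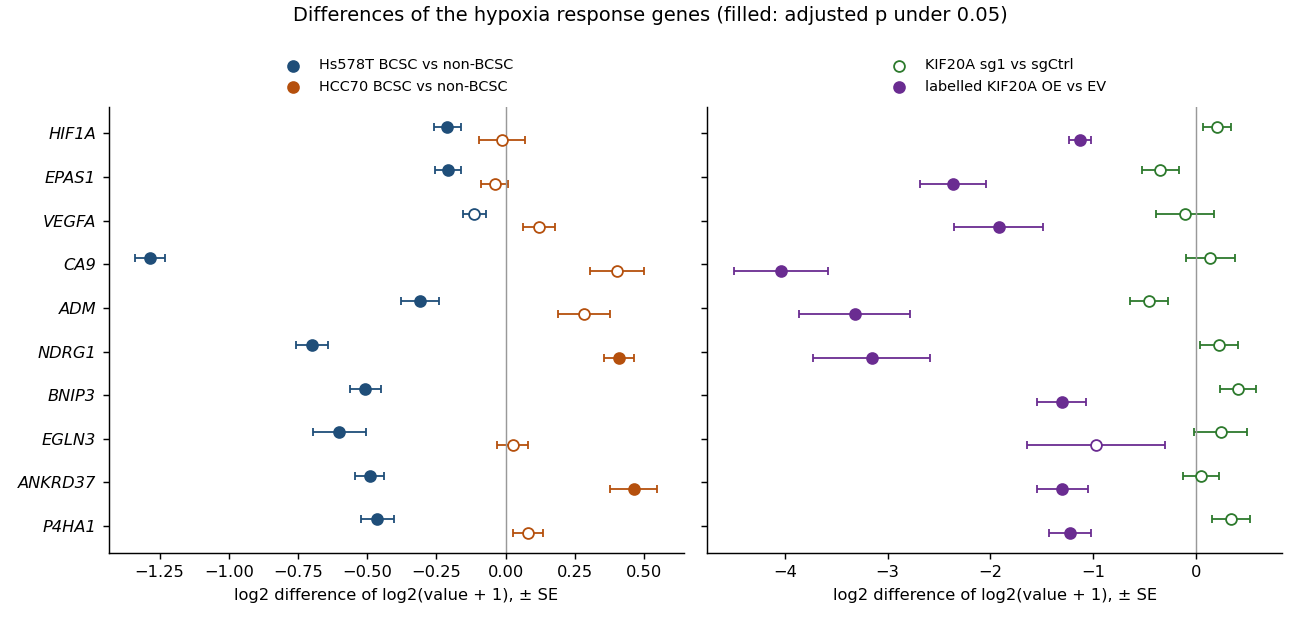
Log2 difference with its SE for each hypoxia response gene in the 4 comparisons, with sorted cells on the left and the experiments labelled MDA-MB-231 on the right, on separate horizontal scales. Filled points have an adjusted p under 0.05. The blue points all lie left of 0, and BNIP3 has no HCC70 point because it was not tested.

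The members' patterns over the 24 libraries, centred and scaled within each table, were alike to unequal degrees. Pearson's r between pairs of the 9 members tested in all tables ran from 0.17 to 0.93 with a median of 0.50 over 36 pairs. These values describe libraries that share the group differences given above and carry no test. CA9 and NDRG1 were the closest pair, at 0.93, and each was the gene most like the other among 9891. The second genes in likeness were PLOD1 for CA9 (0.93) and GLG1 for NDRG1 (0.90). P4HA1 was most like TES, ANKRD37 most like SPAG4 and SH3PXD2A, EGLN3 most like FLVCR2 and P4HA1, VEGFA most like TNFAIP3 and MT1X, ADM most like SIL1 and AQP1, EPAS1 most like CNN2 and S100A10, and HIF1A most like ANKMY2 and WASHC4, with r from 0.81 to 0.93.

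BNIP3 has many processed pseudogenes to which its reads could be assigned. The 39 listed in the depletion table summed to 0.487% to 0.997% of BNIP3 itself, and the 9 listed in the overexpression table to 0.291% to 1.11%. HIF1A shares exon bases with HIF1A-AS1 and HIF1A-AS3 on the other strand, which stood at 0.0401 to 0.307 CPM and 6.56 to 10.8 CPM in the depletion table, beside 431 to 597 CPM for HIF1A.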

How the data were processed

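RNA-Seq libraries were poly-A selected and stranded, from RNA of established cell lines. Processing notes in the labels name HISAT2 2.0.5 and featureCounts 1.5.0-p3 with GRCh38, without stating whether strand was used. For Hs578T and HCC70 the authors deposited TPM values, in a file named for counts. For the depletion experiment they deposited values named CPM, a signal of reads divided by 1 factor per library that is not its total, and for the overexpression experiment CPM. Whole reads were recovered from 100% of rows in all 4 tables (tolerance 0.02 of a read, 0.003 for TPM); in the TPM tables these are the smallest whole numbers that fit and so lower bounds.

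Members were matched by symbol. Members and gene lists were chosen with earlier results of these data known. Each comparison was fitted with limma 3.58.1 (trend, R 4.3.3) on log2(value + 1) over its 6 libraries, for genes with a mean of at least 1, with Benjamini-Hochberg adjustment over all genes tested and a threshold of 0.05. Log2 differences are on that scale and understate changes of low genes. The interaction was fitted over the 12 sorted libraries. Alternatives were a pseudocount of 0.1, no minimum, a minimum mean of 5, median of ratios, quantile normalization, the recovered reads tested with DESeq2 1.42.0 or edgeR 4.0.16, the replicate number as a block, and leaving out each library. Functions were tested on simulated data. Intervals of reads cover counting error only.

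Named genes were all 10 members, the 4 list genes with the largest called difference per list and comparison (in the depletion experiment, those with unadjusted p under 0.05), the 2 most alike genes per member, KIF20A and the markers. Some genes that this rule names are not reported here. Coordinates are from GENCODE 44 and promoter sequences from RefSeq, both GRCh38.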

Additional observations from a re-analysis of the deposited data

Results flagged for a closer look

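For 6 hypoxia response genes the BCSC difference was not the same in both lines by a test of the difference itself, the limma interaction over 12 sorted libraries. Of all 11668 genes tested, 5.62% were called in the same direction. HCC70 minus Hs578T, the gap in log2 units was 1.69 for CA9, 1.11 for NDRG1, 0.95 for ANKRD37, 0.63 for EGLN3, 0.60 for ADM and 0.54 for P4HA1, with adjusted p from 2.10e-05 to 0.0173. Leaving out 1 library at a time moved the CA9 gap between 1.59 and 1.79 and the NDRG1 gap between 1.07 and 1.16. For CA9, NDRG1, ANKRD37 and ADM the 3 BCSC libraries lay under all non-BCSC libraries in Hs578T and above all of them in HCC70. Over all genes, 17.0% lay under in Hs578T and 20.9% above in HCC70. The share of genes with both was not computed. For EGLN3 and P4HA1 the HCC70 groups overlapped. With groups of 3, single libraries were not screened as outliers.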

How the results depend on the processing

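Over 704 refits of single members, 652 kept the direction and side of the threshold, 35 kept the direction but lost the call, 7 gained a call and 10 turned in sign, of which 0 were called in either fit. In HCC70 the log2 difference of EGLN3 turned to -0.0015 with median of ratios and -0.00049 by DESeq2, and without 1 library that of HIF1A ranged from -0.059 to 0.070. With KIF20A sg1 and without 1 library, VEGFA ranged from -0.403 to 0.206, CA9 from -0.058 to 0.352, EGLN3 from -0.0050 to 0.534 and ANKRD37 from -0.038 to 0.133. In HCC70 the members called changed from 2 to 1 with no minimum or edgeR to 0 with a replicate block and to 3 at a minimum mean of 5, and the pathway genes called from 4 to 2 with no minimum, 1 with median of ratios or quantile normalization, 8 with DESeq2 and 0 with a replicate block. With KIF20A sg1, DESeq2 called 1 pathway gene in place of 0. The cause was not tested.

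Leaving out 1 library gave 5 to 9 members in Hs578T, 0 to 2 in HCC70, 0 to 0 with KIF20A sg1, 9 to 10 in the libraries labelled KIF20A OE and 6 to 7 for the interaction. For pathway genes the ranges were 15 to 23, 0 to 1, 0 to 0 and 50 to 56.

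Same-numbered replicates did not deviate together (correlations of deviations from -0.16 to 0.19, not above 0.1 in all 3 pairs of any comparison). Groups of 3 are too small to exclude pairing. With KIF20A sg1, pairs with different numbers correlated at 0.26 (sgCtrl 1 with sg1 3), 0.28 (2 with 1) and 0.25 (3 with 2). The other pairs there were negative. Whether samples were paired under other numbers was not tested. A replicate block gave 7 members in Hs578T, where HIF1A and EPAS1 were lost, 0 with KIF20A sg1, 9 in the libraries labelled KIF20A OE and 6 for the interaction.

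Over all genes, 953 were called in Hs578T, 1806 by edgeR, 1466 by DESeq2 and 343 to 865 without 1 library. In HCC70 374 were called, 178 with no minimum, 233 with median of ratios, 235 with quantile normalization, 747 by edgeR, 1141 by DESeq2, 128 with a replicate block and 32 to 270 without 1 library. The interaction called 830, 302 with a replicate block and 291 to 1225 without 1 library.

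Median of ratios scaling moved the share of called genes that were higher from 40.5% to 52.0% in Hs578T, from 66.3% to 50.6% in the libraries labelled KIF20A OE and from 79.04% to 54.8% in the interaction; quantile normalization gave 44.1%, 54.3% and 66.4%. With median of ratios, Hs578T ADM and EPAS1 were lost, and with no minimum HIF1A as well. EGLN3 was not tested in Hs578T at a minimum mean of 5. In HCC70, ANKRD37 rests on 39 to 85 reads and BNIP3 on 12 to 24, both as lower bounds.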
